A study of Homo sapiens with 12 samples.

Results

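The transcripts described here encode 8 proteins that make or use microRNAs in human cells. They are the nuclear processing pair DROSHA and DGCR8, the export receptor XPO5, the cytoplasmic pair DICER1 and TARBP2, and the Argonautes AGO1, AGO2 and AGO3. They were selected by gene name from 56632 genes in each deposited table, and the choice of DROSHA rested on its measured change in poly to free ratio between genotypes. All 8 were among the 16275 genes that passed the filter on low counts. The libraries came from MCF10A, an established line of mammary epithelial cells, either wild type (WT) or with CBFB, the RUNX-binding partner protein, deleted by CRISPR-Cas9 (CBFB_KO). The parent line does not form tumors, whereas the study reported tumors from the knockout cells in immunocompromised mice. Cells of both genotypes were treated with cycloheximide, which holds ribosomes on mRNA, and lysates were spread over sucrose gradients. The RNA sequenced was that not bound by ribosomes (free), that on single ribosomes (mono) and that on polyribosomes, pooled (poly), with n = 2 in each of 6 conditions, giving 12 libraries. The knockout cells came from a single-cell colony, so the deletion and the clone cannot be told apart, and the labels do not say whether replicates were separate cultures.

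MicroRNAs begin as hairpins in longer RNAs. In the nucleus the Microprocessor, DROSHA with its RNA-binding partner DGCR8, cuts the hairpin out of the primary transcript. XPO5 carries it to the cytoplasm, where DICER1, helped by TARBP2, trims it to a short duplex, and an Argonaute keeps a single strand to find and silence mRNAs. DROSHA and DICER1 are both RNase III enzymes, and of the human Argonautes AGO2 is the one best known for slicing its targets.

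Per library, 41050325 to 63886726 expected counts were assigned to genes. Mitochondrial transcripts took 71.6% and 87.2% of the CBFB_KO free libraries, 11.1% and 20.8% of the WT free libraries and 1.26% to 8.08% of the rest. Counts outside the mitochondrial genome were therefore 13568123 and 5247853 in the CBFB_KO free libraries and at least 43279838 elsewhere, so values from the former rest on the fewest counts. The 2 CBFB_KO poly libraries differed far less than other pairs, with a mean chi-square per gene of 2.22 against 123 to 954, which is still above sampling noise. CBFB itself measured 5.37 and 12.6 normalized CPM (counts scaled to a common library size) in WT free, 8.03 and 6.20 in WT mono, 5.72 and 6.84 in WT poly, 11.3 and 14.1 in CBFB_KO free, 4.79 and 3.89 in CBFB_KO mono, and 3.59 and 4.01 in CBFB_KO poly. The knockout libraries were below all WT libraries of the same fraction in mono and poly only, with log2 differences of −0.71 ± 0.43 and −0.72 ± 0.43 (SE), and CBFB passed the threshold in no fraction (adjusted p at least 0.37, edgeR). Counts over a whole gene do not show a small edit, so CBFB counts do not check the deletion. All 8 basal epithelial markers had counts in every library, and the keratin KRT5 was between 402 and 3745 CPM. The basal keratin KRT14 stood at 18.7 and 19.7 CPM in WT poly and at 138 and 138 CPM in CBFB_KO poly, and its part in the differences below was not tested. Of 6 markers of other cells, PTPRC, COL1A2, ALB and PGR had no count in any library, while COL1A1 (0.538 to 5.90 CPM) and ESR1 (0.110 to 2.53 CPM) had counts in every library.

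DROSHA, the nuclear RNase III, stood apart in the free fraction. Its level was 0.599 and 1.77 CPM in the WT free libraries and 492 and 631 CPM in the CBFB_KO free libraries. The latter exceeded all other libraries, and the deposited counts behind them were 11593 and 6235, against 42 and 138 in WT free. In the mono fraction DROSHA was at 0.618 and 2.15 CPM in WT and 2.58 and 1.54 CPM in CBFB_KO. In the poly fraction it was at 4.88 and 10.0 CPM in WT and 6.63 and 5.97 CPM in CBFB_KO. The genotypes overlapped in mono and in poly. Because these are shares of each library, a change in the RNA recovered in a fraction cannot be told apart from a change in molecules per cell.

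**Figure D1:**
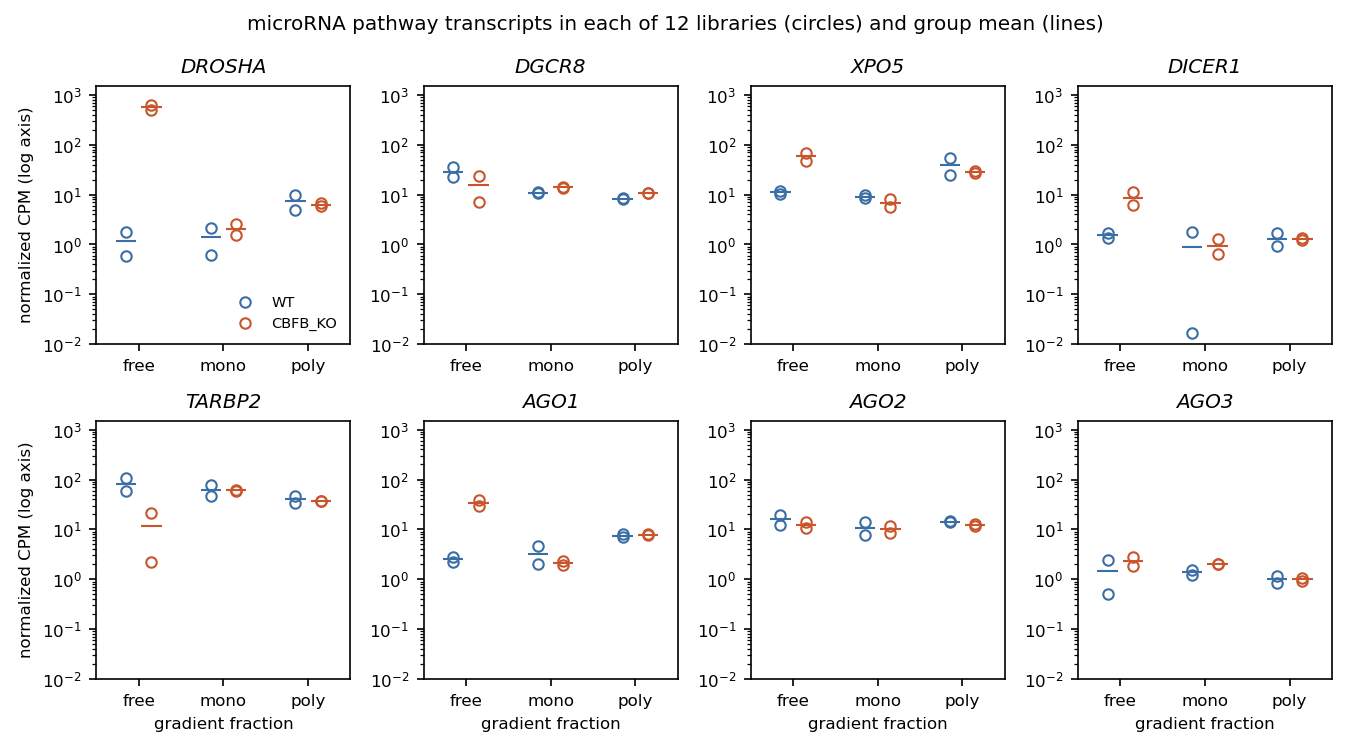
Normalized CPM on a log axis for the 8 transcripts in the free, mono and poly fractions, with a circle for each library and a line for the mean of 2 libraries. DROSHA in the 2 CBFB_KO free libraries, at 492 and 631 CPM, lies above every other DROSHA value, while mono and poly values overlap between genotypes.

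On the log2 scale DROSHA was higher in CBFB_KO than in WT by 8.88 ± 0.89 (SE) in free and differed by 0.59 ± 0.66 in mono and −0.24 ± 0.63 in poly. The poly to free ratio was 3.03 and 2.49 (log2) in the WT gradients and −6.21 and −6.72 in the CBFB_KO gradients, a difference of −9.12 ± 1.04. A gradient here is a set of libraries of a genotype with the same replicate number, which the labels do not state to be 1 gradient. The fitted difference does not use this matching. Since DROSHA was chosen for this ratio, no test is given. DROSHA ranked 244 from the lowest of 16275 genes in the change of the ratio and 214 from the highest in free, so the size of the DROSHA value was matched elsewhere in these libraries. With library size alone as the scaling, the difference was −7.36, but this scaling moved the median of all genes from −0.10 to 1.54. With the authors' FPKM it was −4.68.

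The form of the DROSHA transcripts also differed. RSEM gives each gene a mean transcript length weighted by the estimated abundance of its transcripts. For DROSHA it was 2498 and 2502 nucleotides in the CBFB_KO free libraries, 807 and 603 in WT free, and between 804 and 1675 in the other 8 libraries. Of the 21 DROSHA transcripts in the tables, 17 are 257 to 1261 nucleotides long and 4 are 4681 to 5305 long in GENCODE 29, with none between. The long ones, DROSHA-201, DROSHA-202, DROSHA-212 and DROSHA-220, are protein-coding, whereas 8 of the short ones are annotated as retained introns. With these lengths, the means, if taken as exact, allow 30.6% to 50.7% and 30.7% to 50.8% full-length molecules in the CBFB_KO free libraries. They allow at most 12.4% and 7.83% in WT free. In the poly libraries the ceilings were 19.6% and 32.1% in WT and 21.2% and 21.8% in CBFB_KO.

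Multiplying these shares by the authors' TPM gives a range for full-length DROSHA. It was 17.3 to 28.6 and 7.87 to 13.0 TPM in the CBFB_KO free libraries and at most 0.103 and 0.320 TPM in WT free. Outside CBFB_KO free the highest ceiling for full-length DROSHA was 3.49 TPM, in WT poly replicate 2. Short DROSHA transcripts were also higher, at 27.8 to 39.1 and 12.6 to 17.8 TPM in CBFB_KO free against 0.727 to 0.83 and 3.77 to 4.09 TPM in WT free. TPM shares its scale with the mitochondrial transcripts. These ranges assume the GENCODE 29 lengths, and of 29782 genes with a single transcript 88.9% had a deposited length equal to it within 0.5 bases. They also take the estimated mean lengths as exact, although those of WT free rest on 42 and 138 counts, and the error of these estimates was not included.

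**Figure D2:**
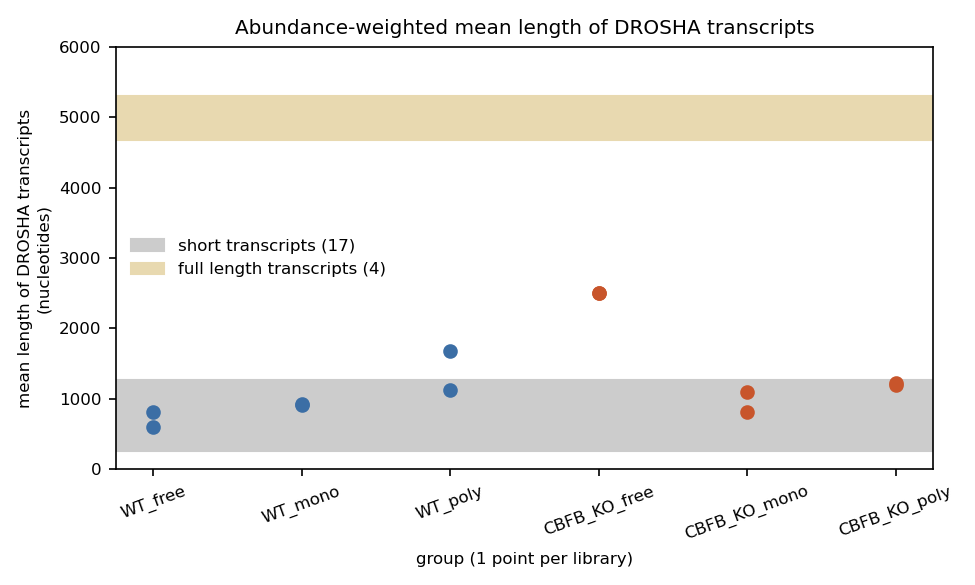
Abundance-weighted mean length of DROSHA transcripts in nucleotides, with a point for each library in 6 groups and bands for the 17 short and 4 full-length annotated transcripts. The CBFB_KO free libraries, at 2498 and 2502 nucleotides, lie between the bands, and the other libraries lie at or below 1675.

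DROSHA lies on the minus strand at chr5:31400497-31532196 (GRCh38, GENCODE 29), and no other annotated gene shares exonic bases with it. The real-time PCR primers that the study designed for DROSHA show which of these transcripts such an assay can see. They bound a product of 61 bases that is found in the 4 full-length transcripts and in the short coding transcripts DROSHA-215 and DROSHA-218.
DROSHA forward primer: gagaaggtccccagaaaggc
DROSHA reverse primer: atgactgtgatctcggtgcc
The remaining 15 of 21 DROSHA transcripts, which include all those annotated as retained introns, hold neither primer site.

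DGCR8, the partner that anchors the hairpin for DROSHA, did not share its pattern. It measured 22.7 and 35.3 CPM in WT free and 23.4 and 7.18 CPM in CBFB_KO free, where the genotypes overlapped. On the FPKM scale DGCR8 was lower in both CBFB_KO free libraries than in either WT free library, a log2 difference of −2.33. In mono it was at 10.6 and 11.1 CPM in WT and 13.5 and 14.4 CPM in CBFB_KO, and in poly at 7.99 and 8.67 CPM in WT and 10.7 and 10.8 CPM in CBFB_KO. Both knockout libraries were above both WT libraries in mono and poly, by 0.36 ± 0.48 and 0.37 ± 0.48 (log2). The low free value came from 71 counts in CBFB_KO replicate 2. In WT free replicate 1 the mean length was 3661, the length of DGCR8-210, which is annotated as a retained intron.

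DGCR8 is also a source of microRNAs, and the Microprocessor is known to cut hairpins within DGCR8 mRNA. The gene spans chr22:20080232-20111877 on the plus strand (GRCh38), and its exons contain the hairpin genes MIR3618 and MIR1306. The mature sequences of MIR1306, from RefSeq (GRCh38.p14), are shown because they lie inside the measured mRNA, with the seed (bases 2 to 8) in capitals.
hsa-miR-1306-5p: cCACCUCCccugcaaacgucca
hsa-miR-1306-3p: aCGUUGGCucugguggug
They occupy chr22:20086072-20086093 and chr22:20086112-20086129 and were found in 5 of the 10 DGCR8 transcripts, 4 of them protein-coding. Reads of DGCR8 can be shared with these and with an antisense gene over 526 exonic bases, and its counts were not whole numbers in most libraries. Whether strand was used in the counting was not given in the sources used here.

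XPO5, the receptor that exports hairpin precursors, measured 11.5 and 10.5 CPM in WT free and 68.3 and 48.0 CPM in CBFB_KO free, a difference of 2.40 ± 0.45 (log2) with no overlap. In mono it was at 9.68 and 8.55 CPM in WT and 8.17 and 5.57 CPM in CBFB_KO, and in poly at 24.7 and 54.8 CPM in WT and 29.1 and 26.9 CPM in CBFB_KO. In poly the genotypes overlapped. The XPO5 poly to free ratio was 1.10 and 2.38 in WT and −1.23 and −0.84 in CBFB_KO (log2), a difference of −2.91 ± 0.62. The free difference depended on the scale, with 0.80 for library size alone and 0.08 on the FPKM scale, where the genotypes overlapped. XPO5, at chr6:43522330-43576075 on the minus strand (GRCh38), shares 348 exonic bases with POLR1C on the opposite strand.

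The dicing pair is next. DICER1, the cytoplasmic RNase III, was scarce, with 1.36 and 1.68 CPM in WT free and 6.07 and 11.2 CPM in CBFB_KO free. In mono it had 0.0172 CPM, a single count, and 1.77 CPM in WT against 0.631 and 1.27 CPM in CBFB_KO, and in poly 0.919 and 1.71 CPM against 1.36 and 1.23 CPM. Outside free, the DICER1 genotypes overlapped. The deposited counts were at most 155 in any library, and the difference in free was 2.50 ± 1.13. TARBP2, the double-stranded RNA-binding partner of DICER1, measured 106 and 58.4 CPM in WT free and 21.2 and 2.23 CPM in CBFB_KO free. The knockout values were the lower ones without overlap, a log2 difference of −2.80 ± 0.78, but the second rests on 22 counts. In mono TARBP2 was at 76.6 and 45.7 CPM in WT and 58.6 and 62.8 CPM in CBFB_KO, and in poly at 46.1 and 33.7 CPM and at 36.8 and 37.5 CPM. These overlapped. The TARBP2 poly to free ratio was higher in CBFB_KO by 2.69 ± 1.05. Leaving out a replicate gave 1.83 to 5.12, the latter without CBFB_KO replicate 1. On the FPKM scale both members of the pair had free differences below 0, −0.77 for DICER1 and −3.90 for TARBP2.

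Among the Argonautes, which hold the mature microRNA, the genotypes separated for AGO1 and overlapped for AGO2 and AGO3 in free on the CPM scale. On the FPKM scale each of them separated in free. The log2 differences were then 2 for AGO1, −2.17 for AGO2 and −1.93 for AGO3. AGO1 measured 2.20 and 2.83 CPM in WT free and 29.8 and 39.1 CPM in CBFB_KO free, a difference of 3.78 ± 0.46 with no overlap. Its mono values were 2.01 and 4.54 CPM in WT and 1.89 and 2.34 CPM in CBFB_KO, and its poly values 7.0 and 7.99 CPM and 8.17 and 7.55 CPM. Both fractions overlapped between genotypes. AGO1 gave a change in poly to free ratio of −3.71 ± 0.61.

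AGO2, the slicing Argonaute on chromosome 8, ranged from 7.75 to 19.8 CPM. It measured 12.1 and 19.8 CPM in WT free, 10.4 and 14.2 CPM in CBFB_KO free, 13.8 and 7.75 CPM in WT mono, 11.8 and 8.38 CPM in CBFB_KO mono, 14.5 and 14.2 CPM in WT poly and 11.8 and 13.1 CPM in CBFB_KO poly. Both knockout libraries were below both WT libraries in poly, by −0.21 ± 0.41 (log2). The change in the AGO2 poly to free ratio was 0.18 ± 0.58, but 1.96 with library size alone. AGO3 was scarce in all libraries. It measured 2.41 and 0.514 CPM in WT free, 1.83 and 2.83 CPM in CBFB_KO free, 1.24 and 1.53 CPM in WT mono, 1.99 and 1.99 CPM in CBFB_KO mono, 0.852 and 1.17 CPM in WT poly and 0.933 and 1.06 CPM in CBFB_KO poly. Both knockout libraries were above both WT libraries in mono, by 0.52 ± 0.68. Its change in poly to free ratio was −0.68 ± 0.97, the sign of which turned with library size alone (1.05) and with FPKM (2.60). AGO1 and AGO3 are neighbours on the plus strand of chromosome 1, at chr1:35869808-35930528 and chr1:35930718-36072500 (GRCh38).

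**Figure D3:**
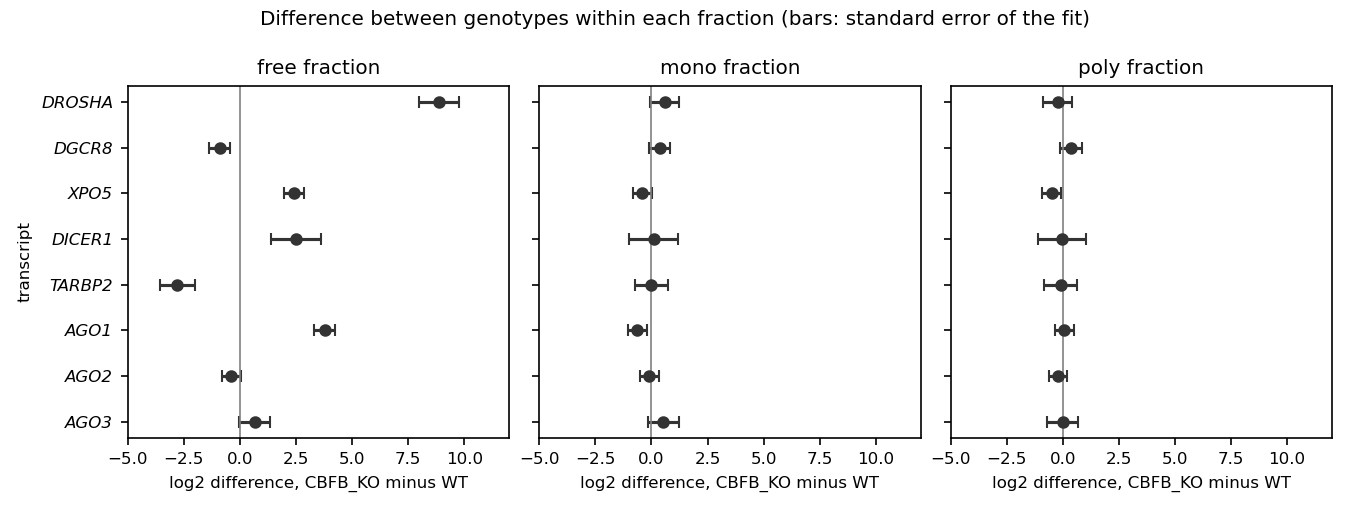
Log2 difference between CBFB_KO and WT for each transcript in the free, mono and poly fractions, with the standard error of the fit over 12 libraries. In free the values run from −2.80 for TARBP2 to 8.88 for DROSHA, whereas in mono and poly they lie between −0.63 and 0.59.

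Whether the transcripts differed between genotypes outside the free fraction could be tested in mono, which had no part in their selection. None of the 8 passed an adjusted p of 0.05 when p-values were adjusted over all genes by the method of Benjamini and Hochberg (adjusted p = 1 for each, quasi-likelihood fit of edgeR), against 0.147% of all tested genes. None reached an unadjusted p under 0.05 or was called by DESeq2. The differences ran from −0.63 ± 0.43 for AGO1 to 0.59 ± 0.66 for DROSHA, and the median was 0.04 beside 0.03 for all genes. Without WT replicate 1, whose mono library held a single DICER1 count, the DICER1 difference was −0.91, and without WT replicate 2 it was 5.54. In poly the differences ran from −0.51 ± 0.43 for XPO5 to 0.37 ± 0.48 for DGCR8.

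Movement between monosomes and polysomes was the second question. The WT and CBFB_KO poly libraries had a part in the choice of DROSHA, so its values in this comparison are a description. The poly to mono ratio differed between genotypes for 0 of the 7 other transcripts and for 0 of 16275 genes (0%). An unadjusted p under 0.05 in edgeR was reached by 164 genes, none of them among the 7, and DESeq2 called 0. The DROSHA ratio was 2.98 and 2.21 in the WT gradients and 1.36 and 1.95 in the CBFB_KO gradients (log2). This is a difference of −0.82 ± 0.91. The standard errors, 0.58 to 1.54 over the 8 transcripts, leave room for sizeable differences.

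Within WT, XPO5 was higher in poly than in mono by 2.12 ± 0.45 (adjusted p = 0.00852, edgeR), 1 of the 7 transcripts other than DROSHA, where 11.0% of all genes were called higher. DROSHA differed by 2.43 ± 0.68, given without a test. None of the 7 was called lower, against 9.68% of genes. The XPO5 call was lost without WT replicate 2 (0.159) or with the length trend removed (0.0683). Within CBFB_KO, XPO5 was higher in poly than in mono by 2.03 ± 0.45 (adjusted p = 0.0132) and AGO1 by 1.89 ± 0.43 (adjusted p = 0.0153), 2 of the 7. In that genotype 8.20% of all genes were called higher and 8.66% lower, and none of the 7 was lower. Both calls were lost without either CBFB_KO replicate, when the CBFB_KO poly pair was counted as 1 sample, and once the trend with length was removed. DROSHA differed by 1.61 ± 0.66 in CBFB_KO and AGO1 gave 1.20 ± 0.42 in WT (adjusted p = 0.0670). The difference between genotypes was the one tested above and passed the threshold for neither XPO5 nor AGO1.

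The poly to free ratio, through which DROSHA was chosen, is given as a description. It was below 0.5 of its WT value in CBFB_KO for DROSHA, AGO1, XPO5 and DICER1, 4 of 8, while 37.5% of all tested genes were below this limit. DICER1 (−2.52 ± 1.54) was the nearest below the limit of −1 (log2) and AGO3 (−0.68) the nearest above. AGO2, DGCR8 and TARBP2 gave differences above 0, with 1.28 ± 0.68 for DGCR8. With the authors' FPKM in place of normalized counts, DROSHA gave −4.68, AGO1 −1.93, XPO5 −0.25 and DICER1 0.40. The share of all genes below the limit is not given for this scale, so these values cannot be set beside the 37.5%.

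Transcript length moved with these values. Across 16275 genes, Spearman's rho between length and the free-fraction difference was 0.44, and it was −0.45 for the change in poly to free ratio, as a description across genes that share the same libraries. AGO1 has a mean length of 12785 nucleotides, longer than 99.96% of tested genes, and DICER1 has 5378, longer than 95.3%. The DICER1 length averages estimates that ran from 1568 to 10220 between libraries, so its place by length is uncertain. With the length trend of each library removed, the difference in free became 0.21 for AGO1 and 0.23 for DICER1, and their change in poly to free ratio became −0.04 and −0.15. XPO5, with 3489 nucleotides, gave 1.08 in free and −1.50 in the ratio. The ratio then changed by −9.99 for DROSHA and by −1.20 for AGO3, whose estimated length ran from 834 to 3649 between libraries. The share of all genes below −1 is not given for this setting. DROSHA (1280 nucleotides on average over libraries) and TARBP2 (1422) were shorter than the median gene of 1880, and gave 9.67 and −2.08 in free. The estimated DROSHA length ran from 603 to 2502 between libraries and was longest in CBFB_KO free. Its place by length, and so its values with the trend removed, are uncertain too. DGCR8, at 3852 nucleotides, went from −0.91 to −2.29.

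**Figure D4:**
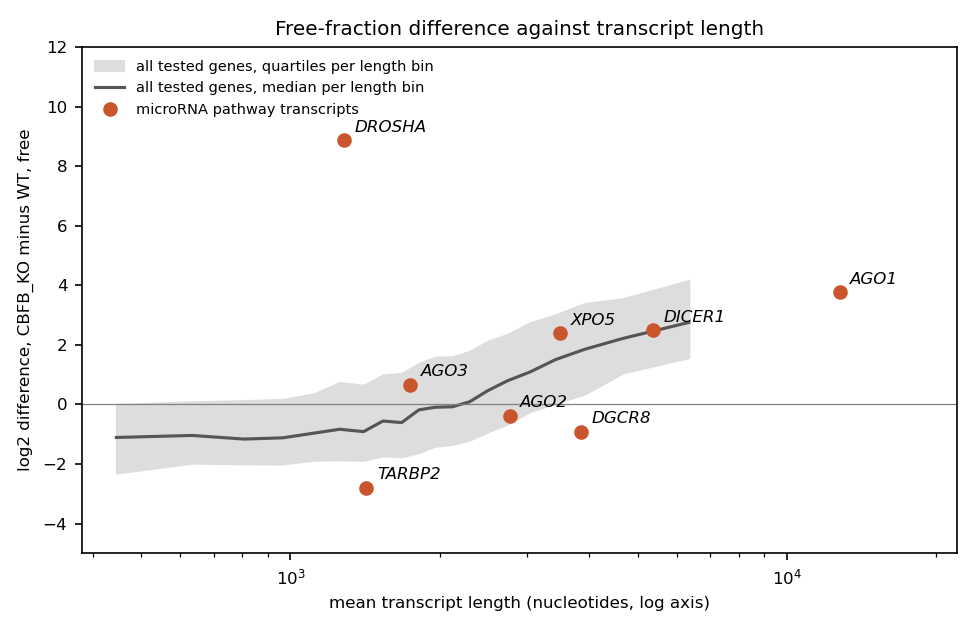
Log2 difference between CBFB_KO and WT in the free fraction against mean transcript length in nucleotides (log axis), with the median and quartiles of all 16275 tested genes in 20 length bins. AGO1 and DICER1, at 3.78 and 2.50, lie at the long end where the median of all genes reaches 2.75, whereas DROSHA at 8.88 lies far above genes of its length and TARBP2 and DGCR8 lie below theirs.

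The wider microRNA pathway was examined through a list of 62 other genes, of which 59 were tested. In the free fraction 31 were higher and 3 lower in CBFB_KO, where 24.2% of all genes were called higher and 18.1% lower, and their median difference was 1.53 beside 0.04 for all genes. For the poly to free ratio 19 were lower and 1 higher, against 14.3% and 4.10% of all genes, and the median was −1.65 beside −0.10. In mono and in poly none of the 59 passed the threshold between genotypes in edgeR, where few of all genes did. Of 16275 genes, 0.147% were called in mono, and 27 were lower and 4 higher in poly. Like the free difference of AGO1, these counts moved with length, to 17 higher and 5 lower in free and 9 lower and 0 higher in the ratio once the trend was removed. Without CBFB_KO replicate 2 they were 12 higher and 0 lower in free and 3 lower and 0 higher in the ratio.

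Cofactors of the Microprocessor gave 5 higher and 1 lower of 11 in free. The RNA helicases DDX17 and DDX5, which assist DROSHA on some hairpins, were higher by 5.66 ± 0.61 and 3.49 ± 0.58, and KHSRP, which binds terminal loops, by 2.97 ± 0.61 (adjusted p at most 0.00439, edgeR). ERH, a small DGCR8-binding protein named after its value was seen, was lower (−1.36 ± 0.39). With the length trend removed these free differences became 4.05 for DDX17, 3.69 for DDX5, 3.52 for KHSRP and −0.26 for ERH. For the ratio 3 of 11 were lower, DDX17 with −6.04 ± 0.76, DDX5 with −3.87 ± 0.77 and KHSRP with −3.74 ± 0.83, and none was higher. These 3 had the direction that DROSHA showed and that DGCR8 did not.

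Genes for export, dicing and loading gave 4 higher and 1 lower of 8 in free. ADAR, which edits double-stranded RNA, was higher by 3.36 ± 0.57 and the chaperone HSP90AA1, which helps load Argonautes, by 2.74 ± 0.56. RAN, the GTPase that XPO5 needs to carry its cargo, was lower (−1.89 ± 0.44). With the length trend removed these free differences became 0.99 for ADAR, 1.78 for HSP90AA1 and −0.79 for RAN. In the ratio ADAR and HSP90AA1 were lower (−3.80 ± 0.76 and −3.16 ± 0.76), and RAN was higher by 1.98 ± 0.61 (adjusted p = 0.0431, edgeR), the opposite direction to XPO5 itself. The RAN call in the ratio was lost with a gradient block, with the length trend removed (0.78), with only the compared groups in the fit and with the CBFB_KO poly pair as 1 sample. It was also lost without WT replicate 1, WT replicate 2 or CBFB_KO replicate 2. The ratio differences of ADAR and HSP90AA1 became −1.33 and −2.11 with the length trend removed.

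Silencing effectors, which act downstream of Argonaute, gave 18 higher and none lower of 32 in free and 12 lower in the ratio. TNRC6A, a scaffold that binds Argonaute, was higher in free by 5.21 ± 0.86 and the decapping cofactor PATL1 by 5.33 ± 0.44. TNRC6C, a related scaffold, had no count in either WT free library and 0.552 and 0.910 CPM in CBFB_KO free. Against a floor of 3 counts per WT free library it was at least 18.0-fold higher in free, and its poly to free ratio was at least 23.6-fold lower. The medians of the 59 genes given above are the same with TNRC6C at these bounds. PATL1 had a lower ratio (−5.47 ± 0.55). The decapping subunit DCP1B also had a lower ratio (−5.87 ± 1.84), with 0 and 11 deposited counts in WT free. Of the genes for tailing and decay, 4 of 8 were higher in free and 1 lower. TENT2 and TUT4, which add nucleotides to RNA ends, were higher by 4.81 ± 0.68 and 4.23 ± 0.44 and had lower ratios, with −5.21 ± 0.88 and −4.68 ± 0.58, the 2 calls of this list. TUT7 was higher in free by 3.41 ± 1.12. ZC3H12A, an RNase named after its value was seen, was lower in free (−2.70 ± 0.80).

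**Figure D5:**
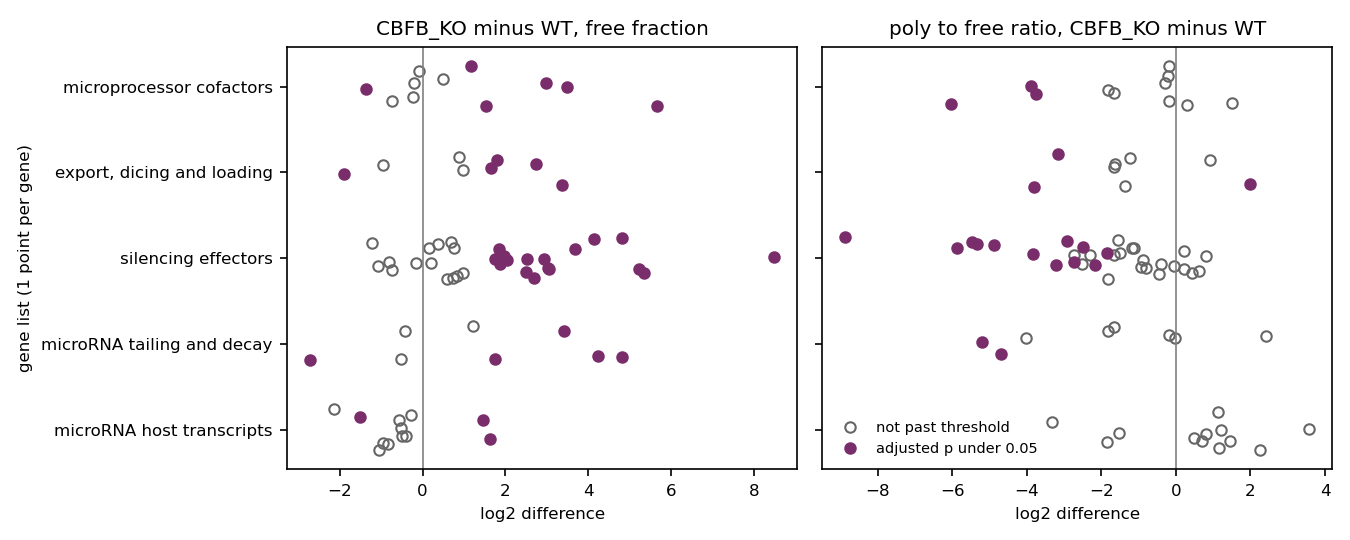
Log2 differences between CBFB_KO and WT in the free fraction (left) and in the poly to free ratio (right), with a point for each tested gene of 5 lists, filled where the adjusted p was under 0.05. In free 31 filled points of the 4 pathway lists lie above 0 and 3 below, and in the ratio 19 lie below 0 and 1 above. The point of TNRC6C, which had no count in WT free, is a fitted value and not a bound.

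Between poly and mono, more of the pathway genes were called higher in poly than lower in both genotypes. In WT 20 of 59 were higher and 2 lower in poly, where 11.0% of all genes were higher and 9.68% lower. In CBFB_KO 18 were higher and 3 lower, against 8.20% and 8.66% of all genes. Examples in WT were HSP90AB1 (3.15), DDX5 (3.06), IPO8 (2.72) and XRN2 (2.40), while the deadenylase subunit CNOT7 was lower (−3.01).

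The host transcripts of microRNAs are the substrates from which DROSHA cuts hairpins. Of 17 listed, 12 were tested. In both genotypes 4 were lower in poly than in mono and none higher, where 9.68% of all genes in WT and 8.66% in CBFB_KO were lower. The WT values were −4.18 for DLEU2, −2.43 for MIR4435-2HG, −2.40 for MIR100HG and −1.69 for MIR22HG. In free MIR100HG was higher in CBFB_KO by 1.62 ± 0.54 and MIR22HG by 1.45 ± 0.46, and MIR210HG was lower (−1.52 ± 0.53). These are 2 higher (16.7%) and 1 lower (8.33%) of 12, not more than the 24.2% and 18.1% of all genes. The direction of MIR100HG and MIR22HG turned with library size alone, to −0.20 and −0.23. None of the 12 was called for the poly to free ratio (edgeR), where 14.3% of all genes were lower and 4.10% higher.

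The microRNAs these hosts carry are shown because they are what the machinery would make from them, with mature sequences from RefSeq (GRCh38.p14) and the seed in capitals. The first 2 come from DLEU2 and share the seed AGCAGCA.
hsa-miR-15a-5p: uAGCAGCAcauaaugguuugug
hsa-miR-16-5p: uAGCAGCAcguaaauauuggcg
hsa-miR-100-5p: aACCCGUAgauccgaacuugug
hsa-miR-125b-5p: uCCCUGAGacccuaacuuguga
hsa-let-7a-5p: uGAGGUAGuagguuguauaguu
hsa-miR-22-3p: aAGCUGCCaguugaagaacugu
hsa-miR-210-3p: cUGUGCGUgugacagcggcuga
The pair from DLEU2 lies at chr13:50049167-50049188 and chr13:50049027-50049048, and the next 3 lie within MIR100HG on chromosome 11. The mature miR-22-3p is exonic and was found in 19 of 19 MIR22HG transcripts. No spliced transcript of DLEU2, MIR100HG or MIR210HG in GENCODE 29 contains its mature microRNA, although each lies within the span of its gene.

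Several other genes followed the pattern of DROSHA over the 12 libraries. Among 13249 protein-coding genes, the highest Pearson correlations of log2 CPM with DROSHA were those of ARHGAP35 (0.986), NFIC (0.986), SERPINB8 (0.984), PTPN23 (0.984) and SMARCC2 (0.984), which share library and depth with it. NFIC measured 7.19 and 16.1 CPM in WT free and 791 and 1080 CPM in CBFB_KO free. These 5 genes had free differences between 3.01 and 6.41, all below that of DROSHA. They were picked for following DROSHA, whose profile is dominated by its CBFB_KO free libraries. Free differences above 0 therefore came with the selection and are a description only.

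Per length, on the FPKM scale, TARBP2 led in WT poly with 52.2 ± 7.64 (SD, n = 2). XPO5 (15.7 ± 8.69) and DROSHA (10.3 ± 2.55) followed and overlapped, as did DROSHA and AGO2 (8.57 ± 0.813). DGCR8 came next with 3.71 ± 0.537, and AGO1, AGO3 and DICER1 were lowest, DICER1 with 0.485 ± 0.0212. The same 5 genes led in the same order in CBFB_KO poly. In free the order was not kept, since TARBP2 led in WT with 75.4 ± 27.3 and DROSHA in CBFB_KO with 86.6 ± 28.0, above XPO5 with 5.32 ± 3.58.

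Tracts of C were counted because hnRNPK, which the study examined together with CBFB, is known to bind C-rich RNA. Runs of at least 4 C (CCCC, sense strand) occurred in 98.6% of the longest coding transcripts of 13047 tested genes, with a median of 3.68 per kilobase. DROSHA had 4.34 per kilobase, above 56.3% of genes. TARBP2 had the most of the group with 6.96 and AGO3 the fewest with 1.47, and DGCR8, AGO2, XPO5, AGO1 and DICER1 had 4.87, 4.25, 3.91, 3.50 and 2.13. The density of DROSHA was thus near the middle of all genes.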

How the data were processed

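RNA sequencing of gradient fractions from WT and CBFB_KO MCF10A cells was analysed (2 libraries per condition). The authors deposited, for each library, RSEM expected counts per gene without normalization. The TPM values were deposited by the authors and are scaled to a common sum, and the deposited FPKM values are scaled by effective length and library total. The submitters' processing notes name Trimmomatic, STAR, RSEM and hg19. Their versions and the strand setting are not given in the sources used here. Replicates were not pooled.

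Expected counts were rounded and fitted with edgeR 4.0.16 (R 4.3.3): TMM factors, filterByExpr on 6 conditions (16275 genes), a mean per condition over all 12 libraries, quasi-likelihood tests, and Benjamini-Hochberg adjustment over all genes with a threshold of 0.05. CPM values are TMM-normalized. Standard errors are the log2 difference divided by the square root of F. DESeq2 1.42.0 and the other alternatives are given in the closing section. The fit was tested on simulated data. Symbols came from a table of gene identifiers (49995 genes) and from GENCODE 29, and sequences from RefSeq, GENCODE 29 transcripts and the study's primer list. Named were the 8 transcripts, CBFB, up to 3 genes of each list with the largest called change in a comparison, and the 5 genes most correlated with DROSHA. MIR222HG, MIRLET7A1HG and PECAM1 were not matched. The 8 transcripts, the lists and the tests were chosen with earlier results of these data known, so no p-value is given for the 8 in the poly to free ratio, the free or the poly fraction, nor for DROSHA in any comparison with poly. With 2 replicates, p-values measure only the spread between these libraries, which may be technical. Totals of 41050325 to 63886726 counts set the counting error, and it is largest in the CBFB_KO free libraries.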

Additional observations from a re-analysis of the deposited data

Results flagged for a closer look

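In DROSHA, XPO5, AGO1 and TARBP2 the WT gradients all moved one way and the CBFB_KO gradients all moved the other way in a ratio to the free fraction. These differences between genotypes were not tested, since the free libraries had a part in the choice of DROSHA. Gradients were matched by replicate number, which the labels do not state to be 1 gradient. The opposite signs held for the poly to free ratio with any matching of the numbers, and for the mono to free ratio with equal numbers only. The DROSHA mono to free ratio in WT was 0.04 and 0.28 (log2). For XPO5 and AGO1 the opposite signs depended on the scale. On the FPKM scale their mean poly to free ratio was above 1 in both genotypes, 3.13 in WT and 2.64 in CBFB_KO for XPO5 and 4.27 and 1.12 for AGO1. It lay on opposite sides of 1 for DROSHA (3.17 and 0.124) and TARBP2 (0.693 and 9.94). For the poly to free ratio the log2 differences were −9.12 for DROSHA, −2.91 for XPO5, −3.71 for AGO1 and 2.69 for TARBP2. For the mono to free ratio they were −8.30 for DROSHA and 2.78 for TARBP2. The part that the mitochondrial share of the CBFB_KO free libraries (71.6% and 87.2%) has in these values was not tested beyond leaving those genes out.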

How the results depend on the processing

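Between genotypes, the mono difference gave 0 of 8 transcripts and the poly to mono difference 0 of the 7 other than DROSHA. This held under every alternative run that kept 2 libraries per condition. For poly against mono, 1 of the 7 transcripts other than DROSHA passed in WT (XPO5), and it was lost with the length trend removed. In CBFB_KO 2 of the 7 passed (XPO5 and AGO1), which became 0 with the length trend removed. With only the compared groups in the fit, TARBP2 and AGO3 were added, both lower in poly. DROSHA is left out of these counts, since its poly libraries had a part in its choice. Of the pathway genes, 19 were lower in the poly to free ratio, against 6 with library size alone, 9 with the length trend removed, 7 with the poly pair as 1 sample and 3 to 22 leaving out a replicate. The 1 higher became 3 with library size alone, 2 without the filter on low counts, 3 with DESeq2, 0 with the gradient block, the length trend removed, the compared groups only or the poly pair as 1 sample, and 0 to 2 leaving out a replicate. In free the 3 lower became 15 with library size alone, 5 with the length trend removed, 0 with the compared groups only and 0 to 3 leaving out a replicate, and the 31 higher became 9, 17, 16 and 12 to 28. NCBP1, SAFB, TSN and TSNAX turned direction with library size alone and with the length trend removed NCBP1, DCP1A and LIMD1 turned in free and CNOT6 (0.31) and LIMD1 (1.13) in the poly to free ratio. Of the 8 transcripts, 4 fell below 0.5 of the WT poly to free ratio, as did 37.5% of all genes, and 4 to 5 did leaving out a replicate. With the deposited FPKM 2 did, and DICER1 reversed to 0.40, but no share of all genes is given on that scale. The cause of these shifts was not tested. Replicate numbers were not used to pair the samples in the main fit (correlations of −0.16 to 0.28, and no shared gradient between genotypes in the labels). These correlations cannot show whether fractions of the same number came from a shared gradient. With the replicate block AGO1 joined XPO5 for poly against mono in WT, with an adjusted p of 0.0390 (edgeR). The other results for the 8 kept their counts.

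The depth limits DICER1 and AGO3 most, with at most 169 counts in any library, and every value that rests on CBFB_KO free replicate 2.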
